A study of Mus musculus with 36 samples.

Results

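The expression of 10 genes of glycolysis and of the response to low oxygen was followed through fracture healing, namely Slc2a1, Hk2, Gpi1, Pfkl, Aldoa, Tpi1, Pgk1, Eno1, Ldha and Bnip3. They were chosen by gene symbol, with earlier results of these data known. The array carried a probe for 8 of these 10 genes, among 18138 genes on the array, and 6 of the 8 were bright enough to be tested, among 10291 genes tested. RNA came from the femur of male C57BL/6N mice, 8 weeks old, either wild-type (WT) or lacking recombination activating gene 1 (RAG1-/-), and thus without mature T and B cells. Intact bone (D0) was compared with callus and the diaphyseal bone next to it on 5 later days, from 3 days (D3) through D7, D14 and D21 to 28 days (D28), although the labels of the D0 samples also read callus. For every genotype and day the RNA of 5 mice went into a single pool, and each of the 12 pools was measured on 3 Illumina MouseRef-8 v2 arrays, 36 in all. All values are log2 intensities after the authors' quantile normalization, on which a difference of 1 is a 2-fold difference. Because the 3 arrays are technical replicates of a single pool, the p-values within a day measure the spread between arrays and not that between mice. The same holds for the p-values of a change against D0 and of a difference in change between the genotypes.

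Glycolysis turns glucose into pyruvate in the cytosol and yields ATP without oxygen. Glucose enters through transporters such as Slc2a1, is phosphorylated by hexokinases, and is split by aldolase into triose phosphates, which are then carried through to pyruvate and, by lactate dehydrogenase, to lactate. When oxygen is low, hypoxia-inducible factor (HIF) binds a short core sequence in regulatory DNA and raises many of these genes together with Bnip3, a mitochondrial protein of mitophagy and cell death. Early fracture haematoma is a tissue of interrupted blood supply, and chondrocytes and bone-forming cells are known to rely strongly on glycolysis. Contracting muscle fibres, which lie against the femur, are also rich in glycolytic enzymes.

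Several arrays stood apart from the rest. The WT arrays of D3 and D7 had scores of 91.5 to 99.5 on the first principal component, which held 34.6% of the variance, whereas all other arrays lay between -39.7 and 22.2. Replicate arrays correlated at 0.885 to 0.994 within WT pools and at 0.983 to 0.995 within RAG1-/- pools. For the WT D14 pool, arrays 2 and 3 reached correlations with a RAG1-/- D21 array of up to 0.984, and with array 1 of their own pool of 0.950 and 0.948. Where a gene had 2 tested probes that both differed from D0, 1 probe was higher and the other lower for 20.1% of these genes in WT D3 callus and for 22.7% in WT D7 callus, for 3.07% to 14.1% on the later WT days, and for at most 2.70% in any RAG1-/- comparison with D0. For the genotype difference this share was 24.4% at D3, 23.9% at D7, 16.6% at D28, 10.6% at D21, 7.19% at D0 and 0% at D14. The Rag1 probe ILMN_1217622 read 4.34 to 6.80 in WT arrays (median 4.59) and 4.40 to 4.90 in RAG1-/- arrays (median 4.60), did not differ past the test on any day, and therefore does not check the genotype labels. Markers of bone-forming cells were present, with 14 of 18 osteoblast genes above the median probe, while Runx2, Dmp1, Sost and Postn lay below it. Of the 15 cartilage genes on the array, 7 were tested, and Sox9, Ihh and Col10a1 were below it. Every result from WT D3 or D7 rests on the arrays that stood apart. Whether the labels or the probe names of these arrays, or the labels of WT D14 arrays 2 and 3, are right was not tested, and an error there would change the gene or group that the values belong to. In bulk tissue, fewer cells of a type and less RNA per cell cannot be told apart.

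The core letters of the HIF element, ACGTG and GCGTG, were looked for on both strands in RefSeq promoters (GRCm38.p6), which run from 250 bases before to 50 bases after a transcription start. Either occurs in 43.8% of all 32851 promoters of this length, with ACGTG in 19.6% and GCGTG in 32.4%. That share is counted per promoter, and 12 of the 15 promoters listed for the 10 genes held a match, though some of these windows overlap. Counted by gene, 7 of the 10 held a match in their most upstream promoter. In at least 1 of their listed promoters 8 did, but genes with several windows had more room for a match. Those of Ldha, Aldoa, Eno1, Slc2a1 and Pfkl are shown because these 5 genes passed the test in WT callus at D3, Ldha, Aldoa and Eno1 as lower than in intact bone and Slc2a1 and Pfkl as higher. Matches are in capitals, and a run CACGTG reads ACGTG on each strand and counts for each.
Ldha, most upstream start, chr7:46845554-46845853, plus strand: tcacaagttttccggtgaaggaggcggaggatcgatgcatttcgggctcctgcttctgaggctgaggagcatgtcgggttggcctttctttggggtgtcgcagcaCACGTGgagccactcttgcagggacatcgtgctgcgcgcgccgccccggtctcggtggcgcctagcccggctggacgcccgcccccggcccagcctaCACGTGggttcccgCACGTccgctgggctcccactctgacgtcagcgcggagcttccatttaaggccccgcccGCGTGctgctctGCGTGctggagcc
Aldoa, most upstream start, chr7:126800398-126800697, minus strand: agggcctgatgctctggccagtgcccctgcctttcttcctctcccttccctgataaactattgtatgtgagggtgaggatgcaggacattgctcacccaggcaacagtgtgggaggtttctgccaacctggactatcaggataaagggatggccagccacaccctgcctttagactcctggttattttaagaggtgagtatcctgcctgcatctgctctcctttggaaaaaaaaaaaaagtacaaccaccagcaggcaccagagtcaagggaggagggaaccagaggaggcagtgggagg
Aldoa, next start, chr7:126799205-126799504, minus strand: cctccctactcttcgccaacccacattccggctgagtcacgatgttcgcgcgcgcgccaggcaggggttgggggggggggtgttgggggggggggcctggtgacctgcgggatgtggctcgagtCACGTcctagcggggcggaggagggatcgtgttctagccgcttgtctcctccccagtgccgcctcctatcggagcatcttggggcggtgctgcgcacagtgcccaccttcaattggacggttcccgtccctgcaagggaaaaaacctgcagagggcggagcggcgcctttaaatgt
Eno1, most upstream start, chr4:150236458-150236757, plus strand: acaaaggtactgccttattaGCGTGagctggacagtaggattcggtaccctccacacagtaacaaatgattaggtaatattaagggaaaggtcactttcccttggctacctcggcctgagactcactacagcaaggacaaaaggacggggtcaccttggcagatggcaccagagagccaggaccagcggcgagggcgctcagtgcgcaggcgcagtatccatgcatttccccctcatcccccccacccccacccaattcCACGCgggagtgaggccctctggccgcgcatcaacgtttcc
Slc2a1, chr4:119108495-119108794, plus strand: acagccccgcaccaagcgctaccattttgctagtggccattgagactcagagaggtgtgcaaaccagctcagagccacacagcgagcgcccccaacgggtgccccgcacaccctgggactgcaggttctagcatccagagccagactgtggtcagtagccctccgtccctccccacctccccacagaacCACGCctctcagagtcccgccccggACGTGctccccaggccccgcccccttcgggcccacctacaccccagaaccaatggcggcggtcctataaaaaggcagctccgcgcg
Pfkl, chr10:78009758-78010057, minus strand: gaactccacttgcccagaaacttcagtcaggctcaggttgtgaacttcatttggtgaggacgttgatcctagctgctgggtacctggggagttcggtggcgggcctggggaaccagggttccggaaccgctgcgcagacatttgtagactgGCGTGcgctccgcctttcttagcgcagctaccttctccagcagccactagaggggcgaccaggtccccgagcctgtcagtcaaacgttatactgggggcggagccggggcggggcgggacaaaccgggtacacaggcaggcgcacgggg
The Ldha window held 7 matches, 5 of ACGTG and 2 of GCGTG. Slc2a1 held 2 and Pfkl 1. The most upstream Aldoa window held 0 and the next held 1. Genes on both sides thus carried the letters, which is a description of the sequence and not of binding. No match was found in the single windows listed for Tpi1 and Gpi1, and 5 were found for Bnip3, 2 each for Pgk1 and Hk2, and 2 in each of the 3 windows of Eno1.

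Slc2a1, the glucose transporter GLUT1, was higher in intact RAG1-/- bone and rose in WT bone after fracture until the arrays of both genotypes overlapped at D3. In intact bone its log2 values (probe ILMN_1258159, chromosome 4) were 6.43, 6.45 and 6.70 on the WT arrays and 7.63, 7.70 and 7.75 on the RAG1-/- arrays. The groups did not overlap, and RAG1-/- bone was 2.24-fold higher (log2 difference 1.17, standard error 0.18, adjusted p = 2.3e-05 in limma). At D3 the WT arrays read 7.57, 7.90 and 7.92 and the RAG1-/- arrays 7.54, 7.73 and 7.87. Here the groups overlapped, with a difference of -0.08 (standard error 0.18, adjusted p = 0.734). WT had risen by 1.27 against D0 (adjusted p = 1.37e-06), whereas RAG1-/- moved by 0.02. At D7 the WT arrays lay at 7.14, 7.15 and 7.32 and the RAG1-/- arrays at 7.81, 7.97 and 7.98, a difference of 0.72 (adjusted p = 0.00182). From D14 on the genotypes overlapped again, with differences of -0.01, -0.31 and 0.07 at D14, D21 and D28, none of which passed. The last was -0.12 when arrays were centred on their median and -0.09 after cyclic loess. The change against D0 differed between genotypes at D3, D14, D21 and D28, by -1.25, -1.18, -1.47 and -1.10. All 4 of these comparisons share the D0 arrays, on which RAG1-/- was the higher genotype. That at D28 no longer passed without replicate 1 (-1.14, adjusted p = 0.0559) or without replicate 3 (-0.86, adjusted p = 0.0872).

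Pfkl, the liver-type subunit of phosphofructokinase, which catalyses the committed step of glycolysis, rose in WT callus at D3 and D7 and was then lower in RAG1-/-. Its probe ILMN_1236539 (chromosome 10) read 7.78, 8.14 and 8.16 in intact WT bone and 7.93, 8.07 and 8.20 in intact RAG1-/- bone, so that the genotypes overlapped at the start. At D3 the WT arrays were at 9.55, 9.55 and 9.62 and the RAG1-/- arrays at 8.42, 8.70 and 8.80. At D7 they were at 9.26, 9.37 and 9.47 against 8.63, 8.68 and 8.70. On both days the RAG1-/- arrays all lay below the WT arrays, by 0.93 (standard error 0.14, adjusted p = 3.34e-06) and by 0.69 (adjusted p = 0.000197). WT stood 2.92-fold above D0 at D3 and 2.53-fold at D7. The RAG1-/- mean was above that of D0 on each of the 5 later days, by 0.39 to 0.74, which stayed under the 2-fold limit set for a change. The difference in change was -0.97 at D3 and -0.74 at D7, also under that limit, and passed it at D3 with arrays centred on their median (-1.04). From D14 to D28 the genotypes differed by 0.14, 0.09 and 0.01, none of which passed, and the last was -0.18 with centred arrays and -0.04 after cyclic loess. The second Pfkl probe, ILMN_2871325, averaged 4.71 and was not tested.

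**Figure D1:**
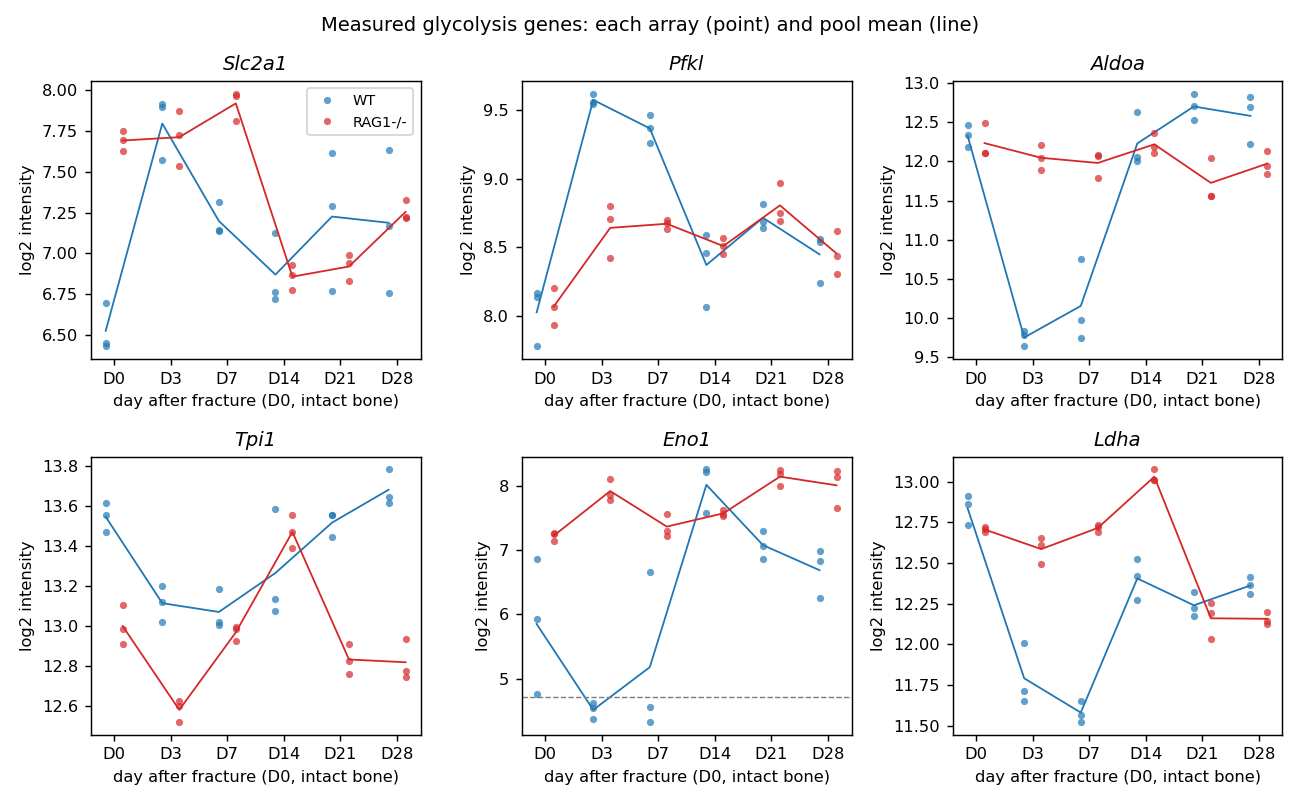
Log2 intensity (vertical axis) of the 6 tested genes in each of the 36 arrays against the day after fracture (horizontal axis), with WT in blue and RAG1-/- in red. Points are single arrays, lines join the means of the 3 arrays of a pool, and the dashed line in the Eno1 panel marks 4.72, the median of all probes. Aldoa and Ldha dip in WT at D3 and D7, where Pfkl peaks, and Eno1 lies below the dashed line on all 3 WT arrays at D3 and on 2 of 3 at D7.

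Aldoa, the aldolase of muscle and most other tissues, showed the largest fall of the 6 tested genes in WT callus at D3 and D7, and was then higher in RAG1-/-. Its probe ILMN_2599130 (chromosome 7) read 12.19, 12.33 and 12.46 in intact WT bone and 12.10, 12.11 and 12.48 in intact RAG1-/- bone. The genotypes overlapped, with a difference of -0.10. At D3 the WT arrays had dropped to 9.64, 9.78 and 9.84, against 11.89, 12.04 and 12.20 in RAG1-/-. At D7 the WT arrays read 9.75, 9.97 and 10.75 and the RAG1-/- arrays 11.79, 12.07 and 12.08. RAG1-/- was thus 4.90-fold higher at D3 (log2 difference 2.29, standard error 0.21, adjusted p = 4.18e-10) and 3.54-fold higher at D7 (adjusted p = 3.6e-08). The change of WT against D0 was -2.57 and -2.17, whereas RAG1-/- differed by -0.19 and -0.25, neither of which passed. The change differed between genotypes by 2.39 at D3 (adjusted p = 2.98e-07) and by 1.92 at D7. At D14 the genotypes overlapped, with a difference of -0.01. The order was then turned, with RAG1-/- lower by 0.97 at D21 (adjusted p = 0.000943) and by 0.61 at D28 (adjusted p = 0.0298). At D21 the RAG1-/- arrays read 11.57, 11.57 and 12.05 and the WT arrays 12.53, 12.71 and 12.86. The call at D28 was lost without replicate 2 (-0.42, adjusted p = 0.332) and without replicate 3 (-0.54, adjusted p = 0.14).

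Tpi1, triosephosphate isomerase, which interconverts the products of the aldolase step, was lower in RAG1-/- on 4 of the 6 days. Its brightest probe ILMN_1230137 (chromosome 6) read 13.47, 13.55 and 13.61 in intact WT bone and 12.91, 12.98 and 13.11 in intact RAG1-/- bone. No arrays overlapped, and the difference was -0.55 (standard error 0.12, adjusted p = 0.00111). It was -0.53 at D3, -0.68 at D21 and -0.86 at D28, the last of which was a 1.82-fold lower level (adjusted p = 3.21e-06). At D28 the WT arrays stood at 13.61, 13.64 and 13.78 and the RAG1-/- arrays at 12.75, 12.77 and 12.94. At D7 (-0.10) and D14 (0.20) the differences did not pass. In neither genotype did Tpi1 change against D0 by more than 2-fold. The second tested probe, ILMN_2932359, was dimmer and was lower in RAG1-/- at D3, D7, D21 and D28, with differences of -0.64, -0.67, -1.68 and -1.64. At D0 it differed by -0.48, which did not pass (adjusted p = 0.136). At D14 it read -0.53, where no RAG1-/- array reached the WT range, against 0.20 at the brighter probe, so the probes pointed opposite ways on a day when neither passed. At D21 this probe read 11.38, 11.52 and 11.63 in WT and 9.51, 9.94 and 10.04 in RAG1-/-, a wider gap than at the brighter probe. Its change against D0 differed between genotypes by -1.20 at D21 (adjusted p = 0.00969 in limma) and by -1.17 at D28 (adjusted p = 0.0118). At the brighter probe these were -0.14 and -0.32 and did not pass. For the brighter probe the call at D0 was lost without replicate 2 (-0.50, adjusted p = 0.0863). Another probe, ILMN_1231447, averaged 4.66 and was not tested.

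**Figure D2:**
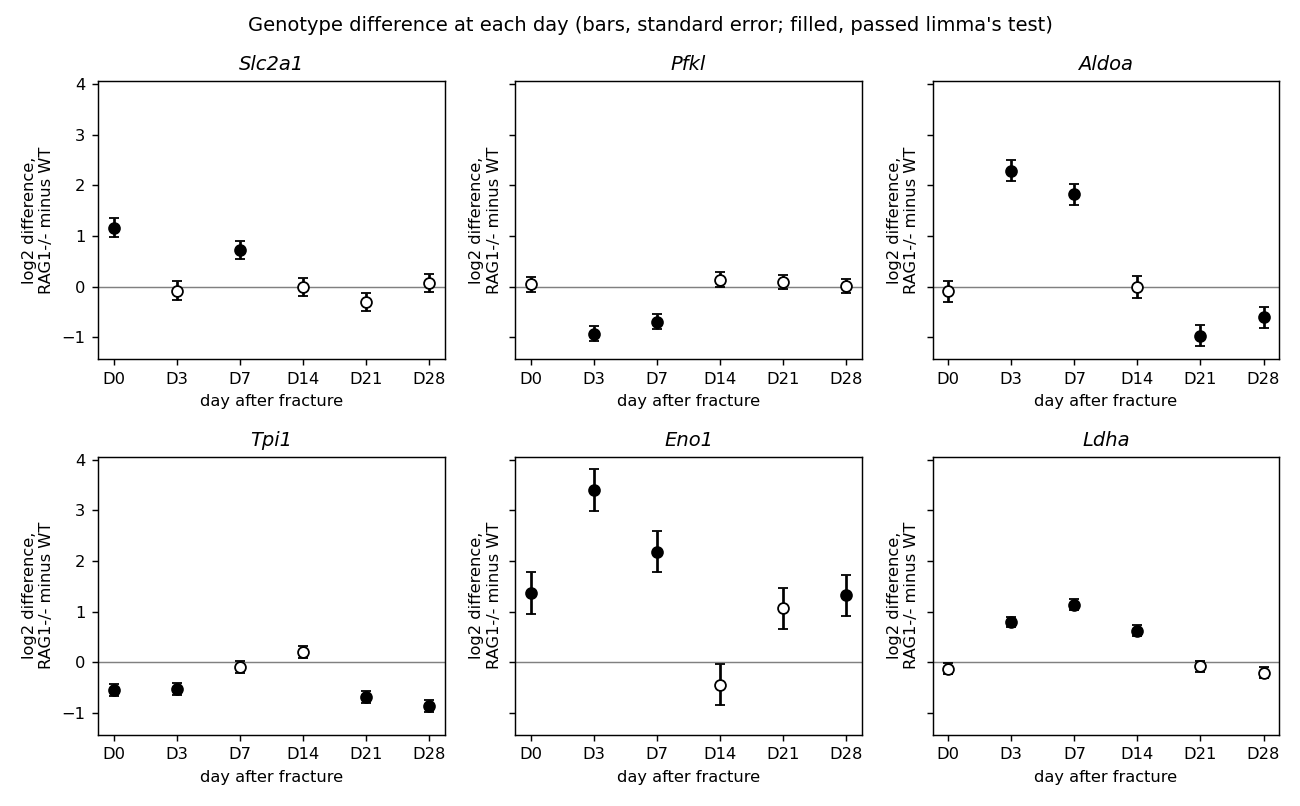
Log2 difference RAG1-/- minus WT (vertical axis) against the day after fracture (horizontal axis) for the 6 tested genes, with bars for the standard error of the limma fit. Filled points passed limma's test at an adjusted p under 0.05, and open points did not. The largest differences were those of Eno1 and Aldoa at D3, at 3.40 and 2.29, while Pfkl and Tpi1 had only negative differences among those that passed.

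Eno1, the widely expressed enolase, was higher in RAG1-/- on 4 of the 6 days, and it had the widest standard error of the 6 tested genes. Its probe ILMN_2958159 (chromosome 4) read 4.77, 5.93 and 6.85 on the 3 arrays of the intact WT pool and 7.14, 7.25 and 7.27 in intact RAG1-/- bone. At D3 the WT arrays were at 4.38, 4.55 and 4.62, all below the median of all probes, and the RAG1-/- arrays at 7.78, 7.86 and 8.10. At D7 the WT arrays read 4.33, 4.55 and 6.66 and the RAG1-/- arrays 7.22, 7.30 and 7.57. RAG1-/- was higher by 3.40 at D3 (standard error 0.41, adjusted p = 6.8e-08) and by 2.18 at D7 (adjusted p = 6.68e-05), and the WT values at the floor limit the size that can be read. At D0 and D28 it was higher by 1.37 and 1.32. At D21 the RAG1-/- arrays also all lay above the WT arrays, by 1.06, without passing (adjusted p = 0.0579). That difference passed in 5 alternatives, with adjusted p from 0.00431 to 0.0152, among them the methods' t-test (0.0142), in which the difference at D7 did not pass (0.0986). At D14 the groups overlapped, with WT at 7.58, 8.21 and 8.25 and RAG1-/- at 7.54, 7.56 and 7.62. The WT pool fell by 1.34 against D0 at D3 (adjusted p = 0.00856) and rose by 2.16 at D14 (adjusted p = 0.000155). Both are measured against the scattered D0 arrays. The fall at D3 was lost without replicate 1 (-0.85, adjusted p = 0.0385), without replicate 2 (-1.23, adjusted p = 0.138), with no filter (adjusted p = 0.0144), with centred arrays (adjusted p = 0.013), after cyclic loess (adjusted p = 0.0131) and with only the groups compared (adjusted p = 0.112). At D7 WT differed from D0 by -0.67, which did not pass, and its arrays overlapped those of D0. Without replicate 2 or without replicate 3 the rise at D14 did not pass the limit of 0.01 (adjusted p = 0.0276 and 0.041). With only the groups compared it did not pass either (adjusted p = 0.035), and it was 1.72 without WT D14 replicates 2 and 3. These 2 arrays read 8.21 and 8.25 and were the arrays with the high correlations to RAG1-/- D21. The genotype difference at D0 was 0.81 without replicate 3 (adjusted p = 0.349) and 1.39 without replicate 2 (adjusted p = 0.179). It was also lost with only the groups compared (adjusted p = 0.1). That at D28 was lost without replicate 2 (1.57, adjusted p = 0.0987) and without replicate 3 (0.99, adjusted p = 0.166).

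Ldha, the lactate dehydrogenase subunit that favours the step from pyruvate to lactate, fell in WT callus at D3 and D7 and was higher in RAG1-/- from D3 to D14. Its probe ILMN_1257965 (chromosome 7) read 12.73, 12.86 and 12.91 in intact WT bone and 12.69, 12.71 and 12.72 in intact RAG1-/- bone. These arrays did not overlap, yet the difference of -0.13 did not pass (adjusted p = 0.442). At D3 the WT arrays were at 11.65, 11.71 and 12.01 and the RAG1-/- arrays at 12.49, 12.61 and 12.65. At D7 they were at 11.52, 11.57 and 11.65 against 12.69, 12.72 and 12.73. At D14 they were at 12.27, 12.42 and 12.52 against 13.01, 13.01 and 13.07. On these 3 days every RAG1-/- array lay above every WT array. The differences were 0.79 (adjusted p = 3.97e-07), 1.13 (adjusted p = 7.37e-10, 2.20-fold) and 0.63 (adjusted p = 0.000422), each with a standard error of 0.11. The last did not pass without replicate 3 (0.65, adjusted p = 0.0995). At D21 and D28 the differences were -0.08 and -0.21 and did not pass, though the latter passed with arrays centred on their median (-0.39). WT fell against D0 by 1.05 at D3 and by 1.26 at D7. The fall at D3 lay at the 2-fold limit, and was under it without replicate 1 (-0.97), without replicate 3 (-0.96) and with centred arrays (-0.99). The change differed between genotypes at D7, by 1.27 (adjusted p = 1.75e-07), and by 0.93 at D3, under the limit.

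Pgk1, phosphoglycerate kinase of the first ATP-yielding step, and Bnip3 could not be compared at these intensities. The Pgk1 probe ILMN_2797973 read between 4.24 and 4.73 over all 36 arrays and the Bnip3 probe ILMN_2755900 between 4.29 and 5.60, both with means below the median probe. With no filter, the smallest unadjusted p of either gene between genotypes was 0.0354, for Bnip3 at D21 (-0.42, adjusted p = 0.166 in limma). Whether the genes were silent cannot be read from these values. Glucose phosphate isomerase (Gpi1) and hexokinase 2 (Hk2) had no probe under these symbols. A probe named LOC100047934 in the table used for symbols, ILMN_1239397, is annotated as Hk2 in another deposited table. Its pool means ran from 9.67 to 12.23, and it is not counted among the 8 genes because the tables disagree.

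Among the 6 tested genes, those that differed between genotypes were most numerous at D3 and D7, as over the whole array. At D0, 2 were higher in RAG1-/-, 1 was lower and 3 did not pass, where 20.2% of all 10291 tested genes passed at an adjusted p under 0.05 in limma (12.8% higher and 7.39% lower). At D3, 3 were higher, 2 lower and 1 did not pass, where 49.6% of all genes passed (26.1% higher and 23.5% lower). At D7, 4 were higher, 1 lower and 1 did not pass (48.5% of all genes, 27.2% higher and 21.4% lower). At D14, 1 was higher and 5 did not pass (4.65%, of which 2.65% higher and 2% lower). At D21, 2 were lower and 4 did not pass (24.6%, with 14.7% higher and 9.87% lower), and at D28, RAG1-/- was the higher genotype for 1 gene and the lower for 2 (29.4%, with 19.5% higher and 9.91% lower). The median log2 difference of the 6 genes was highest at D7, at 0.93 beside -0.01 over all tested genes, and it was -0.19 at D21 beside 0.03. The arrays of both genotypes did not overlap for 6 of the 6 genes at D7, where this held for 54.4% of all genes, for 5 at D3 (55.5%), for 4 at D0 and at D28 (44.2% and 42.2%), for 3 at D21 (45.7%) and for 1 at D14 (24.1%). The count at D14 was 0 in the fit of only the groups compared and 0 in the methods' t-test, and the count at D28 was 1 without replicate 2 or 3. With the WT D3 and D7 arrays left out of the fit, the counts at D0, D14, D21 and D28 were 3, 1, 3 and 3.

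Against intact bone, the genes moved in both directions in WT and in neither direction past the limits in RAG1-/-. In WT at D3, Aldoa, Eno1 and Ldha fell and Slc2a1 and Pfkl rose, 5 of 6 genes where 27.3% of all genes passed an adjusted p under 0.01 and 2-fold (13.3% higher and 14% lower). That count was 3 to 4 when a replicate number was left out and 3 with arrays centred on the median. At D7, Aldoa and Ldha fell and Pfkl rose (26.2% of all genes, 12.2% higher and 14% lower), and at D14, Eno1 rose (12.9%, with 7.74% higher and 5.19% lower). At D21 and D28, 0 of 6 passed in WT (10.1% and 9.87%), with 4 and 3 at an unadjusted p under 0.05. In RAG1-/-, 0 of 6 passed in limma on any day, beside 3.04%, 2.82%, 5.02%, 7.88% and 4.26% of all genes at D3, D7, D14, D21 and D28. At an unadjusted p under 0.05 there were 2, 1, 4, 5 and 3 of the 6. Among them were Slc2a1 at D14 (-0.83, adjusted p = 0.00155), Ldha at D21 and D28 (-0.55 on both days) and Pfkl at D21 (0.74), all under 2-fold. The difference in change between the genotypes passed for 3 of 6 genes at D3 (25% of all genes), 2 at D7 (21.8%), 2 at D14 (10.6%), 1 at D21 (8.47%) and 1 at D28 (8.99%).

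**Figure D3:**
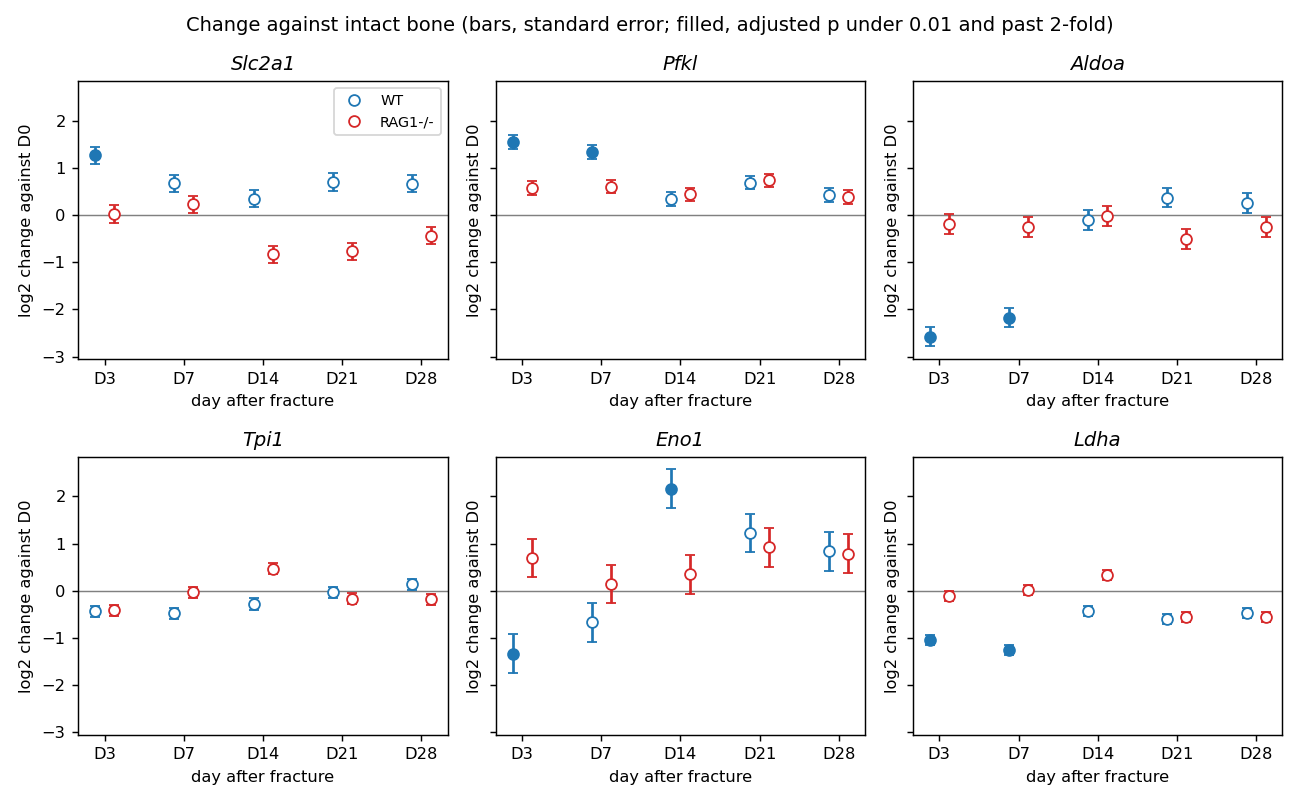
Log2 change against intact bone (vertical axis) at each later day (horizontal axis), with WT in blue, RAG1-/- in red and bars for the standard error. Filled points passed an adjusted p under 0.01 and 2-fold. The filled points are all WT, with Aldoa at -2.57 and Pfkl at 1.55 on D3.

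With pools of separate mice as the replicates, 6 pairs over the 6 days and the day as a block, 0 of the 6 genes passed in limma, where 4.49% of all genes did. At an unadjusted p under 0.05 there were 2, Eno1 with a difference of 1.48 (standard error 0.41, adjusted p = 0.0608) and Tpi1 with -0.42 (standard error 0.19, adjusted p = 0.149). Eno1 passed without D14 (1.87, adjusted p = 0.017) and without replicate 2 (1.48, adjusted p = 0.0479). The second Tpi1 probe passed with -0.94 (adjusted p = 0.0425). For Aldoa, Ldha, Slc2a1 and Pfkl the differences over the days were 0.40, 0.36, 0.26 and -0.23. With D3 and D7 left out, 0 of the 6 passed, Eno1 differed by 0.83 (adjusted p = 0.238) and Tpi1 by -0.47 (adjusted p = 0.31), and Aldoa by -0.42 (adjusted p = 0.338), with the sign turned.

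The genes of consecutive steps did not share a single pattern over the 12 pools. Aldoa and Ldha correlated at 0.73 over the 12 pools and at 0.07 over the 10 pools without WT D3 and D7, and Aldoa and Pfkl at -0.86 and -0.27. Aldoa and Tpi1 correlated at 0.31 and, without these 2 pools, at 0.80. The pools share one normalization, and the coefficients are descriptions. With their pools put in order of level, 8 of the 11 neighbouring pairs overlapped in their arrays for Ldha, 10 for Aldoa and Eno1, and 9 for Slc2a1, Pfkl and Tpi1. Ldha was lowest in WT at D7 and highest in RAG1-/- at D14, the latter clear of its neighbour, while WT D7 overlapped WT D3. Pfkl was highest in WT at D3, clear of WT D7, which was in turn clear of all lower pools. Aldoa had a single gap in its order, between WT D7 and RAG1-/- D21. The genes whose pattern was most like the mean of the 6 were Lsg1 (r = 0.97), Clptm1 (r = 0.96), Zmiz2 (r = 0.96), Pcyt2 (r = 0.96) and Mrps35 (r = 0.96) over 12 pools, and each had its lowest pool mean in WT at D7. That mean followed Aldoa (r = 0.89), Eno1 (r = 0.88) and Ldha (r = 0.71), which were low in WT at D3 and D7, and not Tpi1 (r = 0.01), Slc2a1 (r = -0.03) or Pfkl (r = -0.68). Each of the 6 is itself part of that mean. The mean was not scaled, so Eno1 and Aldoa, with the widest ranges of pool means (3.63 and 2.95), weigh most in it.

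Among the other genes of glycolysis, those that passed went in both directions, and their number was near or under the share of all genes at D3 and D7. Of 26 further transporters, enzymes and regulators, 25 were on the array and 16 were tested. At D3, 4 were higher in RAG1-/-, 3 were lower and 9 did not pass, with a median difference of 0.41 beside -0.05 over all genes. These are 7 of 16, where 49.6% of all genes passed. Pyruvate kinase (Pkm2) was higher by 2.44, the muscle enolase Eno3 by 2.19 and glyceraldehyde-3-phosphate dehydrogenase (Gapdh) by 1.58. Pkm2 averaged 10.09 ± 0.10 in WT and 12.54 ± 0.10 in RAG1-/- at D3 (SD, n = 3 arrays). In the other direction the transporter Slc2a3 (GLUT3) was lower by 1.72, the lactate exporter Slc16a3 by 1.21 and the muscle phosphoglycerate mutase Pgam2 by 1.00. At D7, 5 were higher, 2 lower and 9 did not pass (48.5% of all genes passed), with Eno3 at 2.56 and Pkm2 at 2.29. Against D0, 4 of 16 fell and 0 rose in WT at D3, where 14% of all genes fell and 13.3% rose. The 4 were Eno3 (-3.22), the insulin-responsive transporter Slc2a4 (-2.49), Pkm2 (-2.07) and Gapdh (-1.90). Slc2a4 averaged 4.98 there, near the floor, as did Slc16a3 in RAG1-/- at D3 (4.69), which limits the size that can be read. Pgam2 (-0.19) and Pgam1 (0.49) did not pass. In RAG1-/- only Slc2a4 fell among the 16 at D3 and at D7 (-2.02 and -1.49). At D21, 1 was higher in RAG1-/- and 6 were lower (24.6% of all genes passed), including Pgam2 (-1.60), Eno3 (-1.05) and Gapdh (-0.83), with a median of -0.31 beside 0.03. Aldoa and Tpi1 were lower on that day as well.

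**Figure D4:**
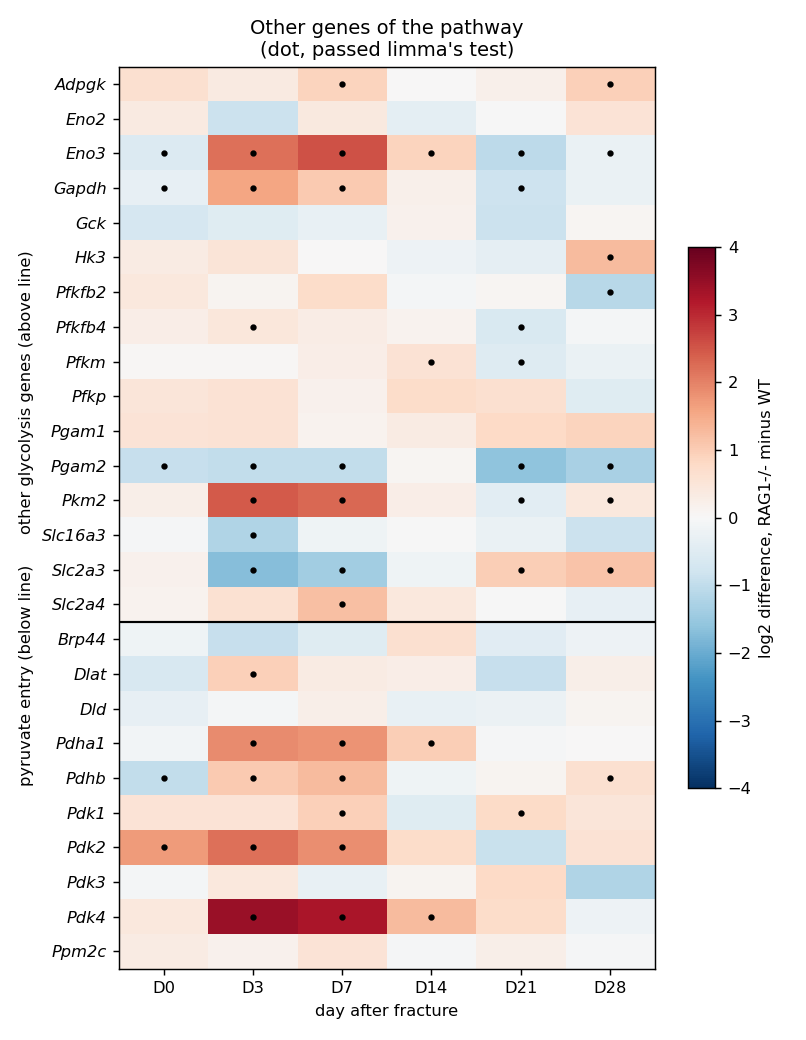
Log2 difference RAG1-/- minus WT (colour, red for higher in RAG1-/-) of 16 other glycolysis genes, above the line, and of 10 genes of pyruvate entry into mitochondria, below it, at each day after fracture (horizontal axis). Dots mark differences that passed limma's test. Eno3, Gapdh and Pkm2 are red at D3 and D7 and blue at D21, and Pdk4 has the largest value, 3.47 at D3.

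Among 10 tested genes that act on pyruvate entry into mitochondria, including kinases that block it, 5 were higher in RAG1-/- at D3 and 5 at D7 and 0 were lower, with medians of 0.75 on both days. Over all genes, 26.1% were higher at D3 and 27.2% at D7, and 49.6% and 48.5% passed in either direction. Pdk4 and Pdk2, kinases that switch off the pyruvate dehydrogenase complex, were higher by 3.47 and 2.21 at D3, and Pdha1 and Pdhb, subunits of that complex, by 1.89 and 1.06. In WT at D3, 4 of the 10 fell against D0 and 0 rose, with Pdk4 at -3.52 and Pdhb at -2.83. Over all genes, 14% fell and 13.3% rose. Pdhb and Pdk2 averaged 4.39 and 4.54 in WT at D3, at the floor, so the size of their differences is limited. Dld (-0.07), Pdk3 (0.43) and Pdk1 (0.53) did not pass between genotypes at D3. Of 8 pentose phosphate genes tested, 4 were higher and 3 lower in RAG1-/- at D3, and of 5 of gluconeogenesis, 2 were higher and 1 lower. Over all genes, 26.1% were higher on that day and 23.5% lower.

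Genes of the HIF pathway itself and other hypoxia-induced genes were mixed. Hif1a and Epas1, the oxygen-regulated HIF subunits, and Egln1, the main prolyl hydroxylase that marks them for decay, were below the median probe and not tested. Of 9 HIF pathway genes tested, 4 were higher in RAG1-/- at D3 and 1 was lower, where 49.6% of all genes passed, with the hydroxylase Egln3 at 1.60 and the coactivator Ep300 at -1.68. Arnt, the constant partner of the HIF subunits, differed by -0.82 and did not pass, nor did Vhl (-0.40), the ubiquitin ligase subunit for hydroxylated HIF. Of 23 other hypoxia-induced genes tested, 8 were higher, 7 lower and 8 not past the test at D3, beside the same 49.6% of all genes, with a median of 0.06 beside -0.05. Lysyl oxidase (Lox), which crosslinks collagen, was higher by 4.84, the sterol synthesis regulator Insig2 by 2.63, the angiogenic factor Vegfa by 2.31 and the lipoprotein lipase inhibitor Angptl4 by 2.13. The transferrin receptor Tfrc was lower by 2.60, the collagen prolyl hydroxylase P4ha1 by 2.14, the histone demethylase Jmjd1a by 2.00 and the mTORC1 inhibitor Ddit4 by 1.23. In WT at D3, 6 rose and 6 fell against D0, where 27.3% of all genes passed, with P4ha1 at 3.20 and Vegfa at -3.96. These sizes are limited by the floor, since P4ha1 averaged 4.50 in intact WT bone, and Vegfa and Insig2 averaged 4.81 and 4.71 in WT at D3. In intact bone, 8 were higher in RAG1-/- and 2 lower (20.2% of all genes passed), with Lox at 1.66, the collagen lysyl hydroxylase Plod2 at 1.31 and Ndrg1 at 1.25. Slc2a1 was higher there as well. So were 9 of 14 tested osteoblast genes, with 3 lower, and 4 of 7 cartilage genes, with 1 lower. Over all genes, 12.8% were higher and 7.39% lower. The mean osteoblast level was 8.14 in intact WT bone and 9.38 in intact RAG1-/- bone. The part of these cells in the differences was not tested. Bnip3l, the paralogue of Bnip3, was lower by 1.89 in intact RAG1-/- bone. At D14, 0 of the 23 passed in limma, where 4.65% of all genes did. Tfrc is also among the erythroid genes, of which 11 of 13 were lower in RAG1-/- at D0 and at D3. On these days 0 and 1 were higher, and 7.39% and 23.5% of all genes were lower. The median differences of the 13 were -2.59 and -3.85. Their mean level was 10.11 in intact WT bone and 6.53 in intact RAG1-/- bone. The part of erythroid RNA in the levels of Tfrc and Bnip3l was not tested.

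Skeletal muscle markers followed Aldoa in direction at D3, D7 and D21, but not Ldha or Tpi1 on all of these days. All 20 of 20 markers were tested. Their mean log2 level was 12.42 to 12.44 over the intact WT arrays, 10.76 to 10.99 at D3 and 10.96 to 11.21 at D7 in WT, and 11.90 to 12.05 and 12.09 to 12.16 in RAG1-/- on these days. At D3, 12 were higher in RAG1-/-, 1 lower and 7 did not pass, where 49.6% of all genes passed. In WT 12 fell against D0, 1 rose and 7 did not pass (27.3% of all genes passed). Aldoa and Ldha were higher in RAG1-/- at D3, while Tpi1 was lower by 0.53. In intact bone, Tpi1 was lower by 0.55 while the muscle means of the genotypes were 12.43 and 12.44. Single markers differed there, with 6 lower in RAG1-/-, 3 higher and 11 not past the test, where 20.2% of all genes passed. The markers did not move as one. The fast light chain Mylpf fell in WT at D3 to a mean of 4.80 near the floor (-9.47). The calcium release channel Ryr1 (-3.79) and the fast alpha-actinin Actn3 (-2.66) also fell, while parvalbumin (Pvalb, -0.07), Atp2a1 (-0.12) and Mb (-0.74) did not pass. At D21, 16 were lower in RAG1-/- and 0 higher, with a median of -0.84, where 9.87% of all genes were lower and 14.7% higher. Aldoa and Tpi1 were lower on that day and Ldha differed by -0.08. At D28, 9 markers were lower and 4 higher (29.4% of all genes passed). In RAG1-/- the array means were 11.56 to 11.61 at D21, against 12.38 to 12.48 in WT. Per the methods, soft tissue was removed from the callus before RNA was prepared. How much muscle stayed in each pool is not known. The part of muscle RNA in the levels of Aldoa, Ldha and Tpi1 was not tested. Pfkl and Slc2a1 went the other way in WT at D3.

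**Figure D5:**
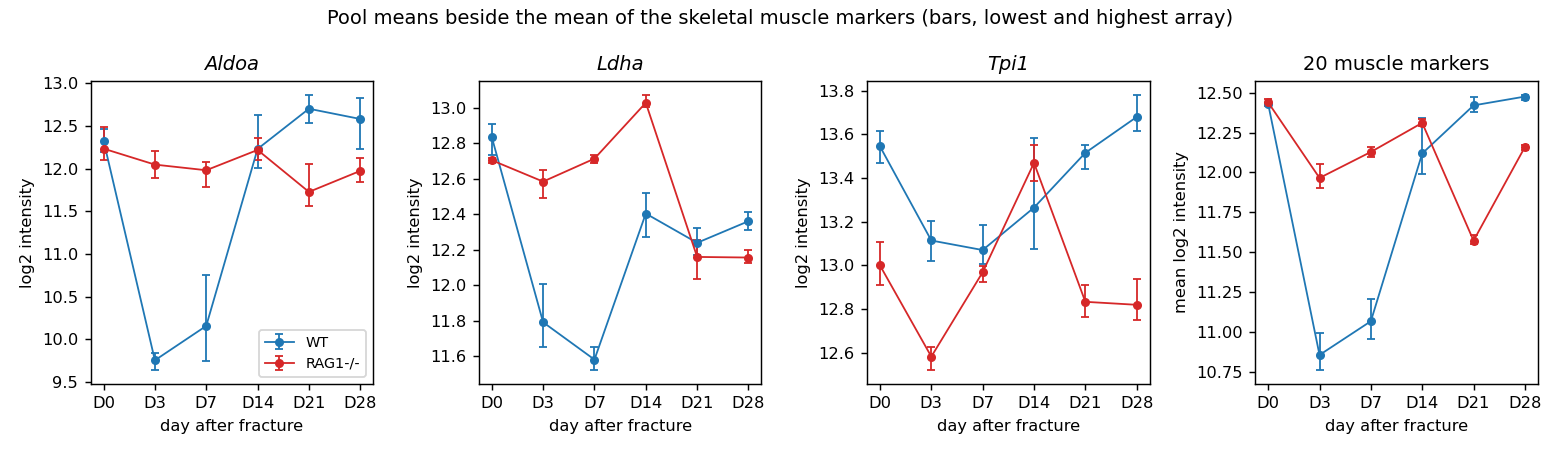
Pool means of Aldoa, Ldha and Tpi1 and of the mean over 20 skeletal muscle markers (vertical axes, log2 intensity) against the day after fracture (horizontal axis), WT in blue and RAG1-/- in red. Bars run from the lowest to the highest of the 3 arrays. The muscle mean and Aldoa are lowest in WT at D3, and among the RAG1-/- pools lowest at D21.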

How the data were processed

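Equal amounts of RNA of 5 mice made up each pool, per the methods. The authors pre-processed the arrays with beadarray and quantile-normalized them with lumi, and deposited log2 values (25697 probes, array medians 4.65 to 4.66). Quantile normalization gives every array nearly the same distribution, so shifts of the whole profile are removed. Array number limits the precision. The other deposited tables held 264 value columns named by BeadChip position, which no source pairs with samples, and were used for annotation only.

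Probes were tested where their mean over the arrays exceeded 4.72, the median probe, with the brightest probe per gene. limma 3.58.1 in R 4.3.3 was fitted to all 36 arrays with 12 group means (residual SD 0.40), and p-values were adjusted over all 10291 genes by Benjamini-Hochberg. A genotype difference was called at an adjusted p under 0.05, a change against D0 at under 0.01 and past 2-fold, and a difference in change at under 0.05 and past 2-fold. Over the days, limma was fitted to the 12 pool means with the day as block. The scripts were tested on simulated data. Alternatives changed the filter, probe choice, scaling, arrays, weights, block, limits and test.

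The text names all 10 genes and their probes, from the other lists up to 4 genes a direction with the largest values among those that passed and up to 3 that did not, defining markers, and the 5 genes of most similar pattern. The genes and lists were chosen with earlier results of these data known. Replicate numbers did not pair the arrays, since of 18 pairs 0 had deviations correlating above 0.1 (range -0.03 to 0.04).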

Additional observations from a re-analysis of the deposited data

Results flagged for a closer look

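At the brightest probes, the change from intact bone differed between RAG1-/- and WT in 9 cases, by limma's test of the difference itself. At D3 these were Aldoa (2.39, adjusted p = 2.98e-07), Eno1 (2.03, adjusted p = 0.00735) and Slc2a1 (-1.25, adjusted p = 0.000355). At D7 they were Aldoa (1.92, adjusted p = 1.08e-05) and Ldha (1.27, adjusted p = 1.75e-07). The WT arrays of both days were those that stood apart on the first principal component. At D14 they were Eno1 (-1.81, adjusted p = 0.0305) and Slc2a1 (-1.18, adjusted p = 0.0017). Slc2a1 also differed at D21 (-1.47, adjusted p = 0.000204) and D28 (-1.10, adjusted p = 0.00398). All comparisons share the D0 arrays of each genotype. For Eno1 the difference at D3 did not pass without replicate 2 (1.97, adjusted p = 0.129), and that at D14 did not pass without replicate 2 (-1.75, adjusted p = 0.297), without replicate 3 (-1.13, adjusted p = 0.433) or without WT D14 replicates 2 and 3 (-1.38, adjusted p = 0.266).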

How the results depend on the processing

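The count of genes that differed between genotypes was 5 at D3 under all 12 alternatives, between 4 and 6 at D7 and between 2 and 3 at D21. Leaving out a replicate number gave 1 to 3 at D0, 0 to 1 at D14 and 1 to 3 at D28. At D14 the count was 3 with array weights, 0 with only the groups compared, 0 by the methods' t-test and, in an alternative chosen after seeing the data, 2 without WT D14 replicate 1. For the change against D0, leaving out a replicate number gave 3 to 4 in WT at D3, 0 to 1 at D14 and 0 to 1 at D21. In WT at D3 the count was 3 with arrays centred on the median, and at D14 it was 0 without WT D14 replicates 2 and 3 and 0 with only the groups compared. At D21 it was 1 without the WT D3 and D7 arrays in the fit, also chosen after seeing the data. With an adjusted p under 0.05 and no fold limit it was 5, 2, 4 and 3 in WT at D7, D14, D21 and D28, and 2, 1, 4, 3 and 1 in RAG1-/- from D3 to D28. For the difference in change that limit gave 5, 4, 4 and 2 at D3, D7, D14 and D21. At D14 the count was 1 without WT D14 replicates 2 and 3 and 1 to 2 without a replicate number, at D28 it was 0 to 1 without one, and with the second brightest probe it was 2 at D21 and 2 at D28. Over the days it was 1 with that probe, 1 without D14 and 0 to 1 without a replicate number. Of 289 alternatives for counts, 250 stayed within 1.5 times, and of 1734 for single genes 38 lost and 53 gained a call, while 58 turned sign without passing in either setting. The replicate block left 21 of 21 counts equal (0 to 5). Centring or cyclic loess moved the median of all genes by over 0.1 in 15 of 44 comparisons (-0.20 to 0.12). The causes were not tested. Values near the floor, as for Pgk1, Bnip3, Eno1 in early WT callus and several genes of the other lists, limit the differences that can be seen.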
